A study of Mus musculus with 6 samples.

Results

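Genes of programmed cell death were followed in CD71-positive erythroblasts, the nucleated precursors of red cells, sorted from mouse bone marrow on the transferrin receptor. The 38 genes were chosen by symbol as caspases, members of the Bcl2 family and components of death receptor signalling, and every probe set annotated to one of these symbols alone was taken. Of the 38 genes, 36 had such a probe set, with 70 probe sets in all, out of 12393 genes and 22626 probe sets tested. Ripk1 had none, and the only probe set of Pdcd5 was shared with a pseudogene symbol and was left out. The 3 mutant RPS19 samples came from mice expressing a transgene of the ribosomal protein RPS19 carrying R62W, and the 3 wild type samples from mice described as wild type. All 6 samples are of the FVB/N strain, and each was hybridised to 1 Affymetrix array. The study concerned Diamond-Blackfan anaemia, in which the marrow makes too few red cells. The labels used here give no age, no promoter for the transgene and no number of animals, so a p-value reflects the spread among these arrays alone, and that spread may be technical. In the sample descriptions, mutant replicates 2 and 3 carry tags that share a letter and mutant replicate 1 a tag with another letter, whose meaning is not stated.

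Cells die by apoptosis along a pair of converging routes. In the mitochondrial route, BH3-only proteins relieve the block that survival proteins such as Bcl2 place on effectors such as Bak1, the mitochondrial membrane opens, and caspase-9 is activated. In the death receptor route, ligands of the tumour necrosis factor family engage receptors whose adaptors recruit caspase-8. Erythroblasts depend on erythropoietin for survival, and caspases also take part in their normal maturation.

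The values are log2 signal per probe set, and differences are mutant minus wild type on that scale. The brightest probe set stood for a gene. Wild type arrays lay closer together than mutant arrays: the median SD of a member was 0.21 in mutant and 0.071 in wild type samples, against 0.18 in mutant and 0.088 in wild type samples over all genes. Control probe sets differed between the groups. Bacterial transcripts spiked in before labelling read 12.83 ± 1.08 on mutant and 8.75 ± 0.016 on wild type arrays (SD, n = 3 each; two-sided exact permutation p = 0.1, the smallest possible for 3 against 3). Hybridisation controls read 10.47 ± 0.22 on mutant and 9.36 ± 0.066 on wild type arrays (SD, n = 3 each, exact permutation p = 0.1). The 3' minus 5' value of Gapdh was 0.27 ± 0.032 in mutant and -0.066 ± 0.019 in wild type samples (SD, n = 3 each, exact p = 0.1). That of actin was 1.70 ± 0.16 in mutant and 1.31 ± 0.0535 in wild type samples (SD, n = 3 each, exact permutation p = 0.1). These values moved with the groups, and their part in the results below was not tested. Erythroid identity was checked with 9 measured markers. The sort marker Tfrc, Klf1, Gata1 and Slc4a1 read 9.07 to 12.15 on all arrays. Alas2 and Rhag read 9.27 to 10.88, Epor and Epb42 7.56 to 9.15, and the Hba-a1 probe set 2.87 to 3.27. The 9 markers averaged 8.92 to 9.67. A list of 8 neutrophil markers averaged 10.18 to 11.94, so transcripts of other marrow cells were also present. The erythroid mean was lower on every array, but it includes the dim Hba-a1 probe set. Levels of different probe sets do not compare amounts, so the lists are not ranked here. The mouse Rps19 probe set read 12.06, 12.10 and 12.09 on the mutant arrays, against 12.13, 12.10 and 12.06 on the wild type arrays, and whether it detects the transgene is not stated. Mutant replicate 3 stood apart in sex-linked transcripts, picked out after their values were seen. Xist, the RNA of X inactivation, read 11.38, 11.93 and 5.78 on the mutant arrays, against 11.96, 12.07 and 11.98 on the wild type arrays. Eif2s3y, a gene of the Y chromosome, read 2.27, 2.35 and 8.34 on the mutant arrays, against 2.23, 2.23 and 2.45 on the wild type arrays. The labels give no sex, and the part of this difference in the members' values was not tested. Of the members, Xiap and Aifm1 lie on the X chromosome, and values without mutant replicate 3 are given below.

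No member gene passed the test between mutant and wild type erythroblasts. By limma with Benjamini-Hochberg adjustment over all genes, 0 of 36 were called at an adjusted p under 0.05, where 0.331% of all 12393 genes were called, and 8 of 36 had an unadjusted p under 0.05, where 17.4% of all genes did. At an adjusted p under 0.10 there were again 0 of 36, where 3.09% of all genes passed. The members' differences ran from -0.46 to 0.42, with a median of 0.01 against -0.0044 over all genes, and their SE was 0.086 to 0.39. The smallest difference called in any gene was 0.63, so the members' differences lay below every called one. The mutant and wild type values did not overlap for 9 of 36 members, 4 higher and 5 lower in the mutant, beside 24.7% of all genes (12% higher and 12.7% lower).

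**Figure D1:**
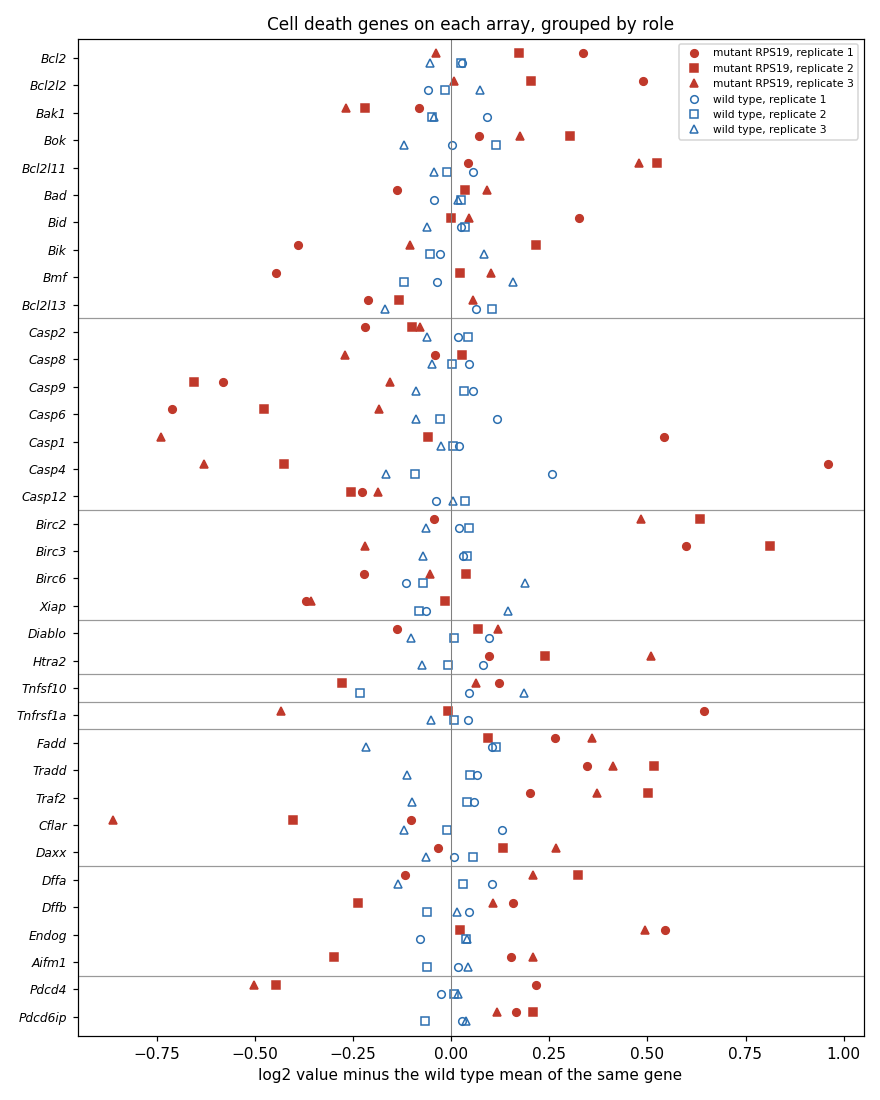
Log2 value of each of the 36 members on each array, minus the wild type mean of the same gene, with genes grouped by role (filled red symbols for mutant RPS19, open blue symbols for wild type, shape for the replicate number). The wild type symbols cluster near 0, whereas the mutant symbols spread, from -0.86 for Cflar on mutant replicate 3 to 0.96 for Casp4 on mutant replicate 1.

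Caspases are the proteases that carry out cell death, and 7 were measured. All 7 had a lower mutant mean, with a median difference of -0.13, while 50.9% of all genes had a lower mutant mean. Of the 7, 3 had an unadjusted p under 0.05, each of them with a lower mutant mean, where 8.3% of all genes were lower at that level. The mean of Casp4 turned higher in the mutant, by up to 0.27, when mutant replicate 2, mutant replicate 3 or wild type replicate 1 was left out, and that of Casp1 turned to 0.24 without mutant replicate 3.

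Casp9 (Entrez gene 12371), the initiator caspase of the mitochondrial route, had 6.07, 5.99 and 6.49 on the mutant arrays, against 6.70, 6.68 and 6.56 on the wild type arrays. Every mutant value lay below every wild type value, and mutant replicate 3 was the closest to them. The difference was -0.46 ± 0.15 (SE, adjusted p = 0.175, limma), which is 0.726-fold. Its dimmer probe set had 4.04, 4.44 and 4.37 on the mutant arrays, against 5.35, 5.38 and 5.14 on the wild type arrays. In the fit over probe sets this one fell by 1.004 ± 0.13, a fold of 0.499 (SE, adjusted p = 0.0186, limma), and 43.1% of all tested probe sets had a lower mean. Both probe sets of Casp9 were therefore lower on every mutant array, and only the dimmer was called.

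Casp6 (Entrez gene 12368), an executioner caspase that cleaves nuclear lamins, had 6.96, 7.19 and 7.48 on the mutant arrays, against 7.78, 7.64 and 7.58 on the wild type arrays. The groups did not overlap, and mutant replicate 1 was lowest. The difference was -0.46 ± 0.15 (SE, adjusted p = 0.184, limma). Casp12, an inflammatory-type caspase, had 3.39, 3.36 and 3.43 on the mutant arrays, against 3.57, 3.65 and 3.62 on the wild type arrays, a difference of -0.22 ± 0.086 (adjusted p = 0.25, limma). The groups did not overlap, although the probe set was dim. Its dimmer probe set differed by -0.045 ± 0.12 (SE) with overlap. Casp2, an initiator caspase that responds to nuclear stress, differed by -0.13 ± 0.092 without overlap, and Casp8, the initiator of the death receptor route, by -0.095 ± 0.11 with overlap.

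Casp1, which matures interleukin-1 beta, and Casp4, which in the mouse senses bacterial lipopolysaccharide inside cells, split the mutant arrays. Casp1 had 7.82, 7.22 and 6.54 on the mutant arrays, against 7.30, 7.28 and 7.25 on the wild type arrays. Casp4 had 5.81, 4.43 and 4.22 on the mutant arrays, against 5.11, 4.76 and 4.69 on the wild type arrays. Both were above the wild type range on mutant replicate 1 and below it on mutant replicates 2 and 3. Their mean differences were near 0, at -0.085 ± 0.29 for Casp1 and -0.032 ± 0.39 for Casp4 (SE). Casp1, Casp4 and Casp12 lie next to each other on chromosome 9 with 0 annotated genes between them, and Casp12, unlike them, was below the wild type range on mutant replicate 1.

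The stretches around the start of 4 caspase genes are shown, those of the caspases with the lowest p, Casp9 and Casp6, and of the pair that split the mutant arrays. Each runs 5′ to 3′ from 250 bases before to 50 bases after the annotated start, from RefSeq on build GRCm38.p6. Capitals mark GGGCGG, the GC box, and the erythroid GATA motif AGATAA or TGATAA, on either strand. The motifs do not overlap each other. The positions are chr4:141793362-141793661 for Casp9, chr3:129901165-129901464 for Casp6, chr9:5298267-5298566 for Casp1 and chr9:5308599-5308898 for Casp4, all on the plus strand.
Casp9: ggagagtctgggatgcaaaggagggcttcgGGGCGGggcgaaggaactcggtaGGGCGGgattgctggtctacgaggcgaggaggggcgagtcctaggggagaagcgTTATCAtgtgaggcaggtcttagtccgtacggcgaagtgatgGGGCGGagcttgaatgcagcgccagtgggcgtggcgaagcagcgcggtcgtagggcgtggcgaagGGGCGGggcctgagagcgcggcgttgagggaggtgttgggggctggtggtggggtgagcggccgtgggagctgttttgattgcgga
Casp6: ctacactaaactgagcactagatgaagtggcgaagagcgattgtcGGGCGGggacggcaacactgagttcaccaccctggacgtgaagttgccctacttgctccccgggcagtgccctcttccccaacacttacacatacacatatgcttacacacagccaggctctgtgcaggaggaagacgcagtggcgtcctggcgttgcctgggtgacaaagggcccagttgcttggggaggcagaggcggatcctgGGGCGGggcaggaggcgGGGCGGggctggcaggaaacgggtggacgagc
Casp1: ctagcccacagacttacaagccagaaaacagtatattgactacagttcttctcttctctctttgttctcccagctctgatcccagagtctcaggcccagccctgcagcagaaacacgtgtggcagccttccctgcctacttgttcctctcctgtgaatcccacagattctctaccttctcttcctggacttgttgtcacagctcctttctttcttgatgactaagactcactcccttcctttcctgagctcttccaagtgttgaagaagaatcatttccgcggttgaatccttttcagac
Casp4: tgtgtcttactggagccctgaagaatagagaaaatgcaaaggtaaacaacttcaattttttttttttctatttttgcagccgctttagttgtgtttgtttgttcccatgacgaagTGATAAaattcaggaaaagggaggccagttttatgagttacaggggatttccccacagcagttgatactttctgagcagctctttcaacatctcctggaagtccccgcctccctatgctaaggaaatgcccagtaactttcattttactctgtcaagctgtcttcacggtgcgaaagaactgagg

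The Casp9 stretch held 4 GC boxes and 1 GATA motif and was 66% G and C, and the Casp6 stretch held 3 GC boxes and 0 GATA motifs at 62%. The Casp1 stretch held 0 of either motif at 48%, and the Casp4 stretch held 0 GC boxes and 1 GATA motif at 42%. Casp12, by its brightest probe set, and Casp2 were also lower on every mutant array. Their stretches held 0 and 2 GC boxes at 41% and 63.7%, with 0 GATA motifs in either. That of Casp8 held 0 GC boxes and 1 GATA motif at 42%. Of 32851 such stretches over all genes, 35.7% held a GC box and 18.6% a GATA motif. Of 47 stretches of 35 of the 38 listed genes, 28 held a GC box and 6 a GATA motif. These counts include Ripk1 and Pdcd5, which had no usable probe set, and every one of the overlapping stretches of Casp4, Daxx and Birc2. Each Daxx stretch held GC boxes, so the GC box count holds repeats. A match describes the letters in this window and is no evidence of binding.

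Among the 10 Bcl2 family members, 5 had a higher and 5 a lower mutant mean, and 1 had an unadjusted p under 0.05. Bcl2l11 (Entrez gene 12125), the BH3-only protein Bim, had 8.40, 8.88 and 8.83 on the mutant arrays, against 8.41, 8.34 and 8.31 on the wild type arrays. Mutant replicates 2 and 3 lay above the wild type arrays and mutant replicate 1 lay among them. The difference was 0.35 ± 0.14 (SE, adjusted p = 0.27, limma). Its 5 probe sets did not go one way: 2 were higher and 3 lower in the mutant, from -0.41 to 0.35, and the mean of all 5 differed by -0.070.

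Bak1, which forms pores in the mitochondrial membrane, had 6.55, 6.41 and 6.36 on the mutant arrays, against 6.72, 6.58 and 6.58 on the wild type arrays, with no overlap and a difference of -0.19 ± 0.099 (SE, adjusted p = 0.38, limma). Bok, a related effector, differed by 0.18 ± 0.11. The survival genes Bcl2 and Bcl2l2, which encodes Bcl-w, differed by 0.16 ± 0.12 and 0.23 ± 0.14 (SE), in both cases with the highest value on mutant replicate 1. For Bcl2l2 the 3 dimmer probe sets pointed the other way, from -0.28 to -0.21. The BH3-only genes Bad, Bid, Bik and Bmf differed by -0.11 to 0.12, Bad by -0.0030 ± 0.099, Bid by 0.12 ± 0.11, Bik by -0.093 ± 0.16 and Bmf by -0.11 ± 0.16 (SE). Bcl2l13, a mitochondrial member linked to mitophagy, differed by -0.097 ± 0.12.

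No death receptor adaptor was called. Of the 5 measured, Tradd, Traf2, Fadd and Daxx had a higher and Cflar a lower mutant mean, with a median difference of 0.24. Tradd (Entrez gene 71609), the adaptor that docks on tumour necrosis factor receptor 1, had 6.70, 6.88 and 6.77 on the mutant arrays, against 6.42, 6.41 and 6.25 on the wild type arrays. The groups did not overlap and the difference was 0.42 ± 0.10 (SE, adjusted p = 0.102, limma), the lowest adjusted p among the members. Its dimmer probe set differed by -0.11 ± 0.11, so its probe sets disagreed in sign. Traf2 (Entrez gene 22030), a ubiquitin ligase adaptor that recruits Birc2 and Birc3 to the receptor, had 6.80, 7.10 and 6.97 on the mutant arrays, against 6.66, 6.64 and 6.50 on the wild type arrays. These groups did not overlap either, and the difference was 0.36 ± 0.11 (SE, adjusted p = 0.17, limma).

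Cflar, which encodes c-FLIP, the inhibitor of caspase-8, had 5.97, 5.67 and 5.21 on the mutant arrays, against 6.20, 6.06 and 5.95 on the wild type arrays. Mutant replicates 2 and 3 lay below the wild type range and mutant replicate 1 within it, with a difference of -0.46 ± 0.19 (SE, adjusted p = 0.28, limma). Its other 3 probe sets differed by 0.0002 to 0.14. Fadd, which bridges death receptors and caspase-8, differed by 0.24 ± 0.13 and Daxx, a Fas-binding protein and histone chaperone, by 0.12 ± 0.11 (SE). The receptor gene Tnfrsf1a had 8.73, 8.08 and 7.65 on the mutant arrays, against 8.13, 8.09 and 8.03 on the wild type arrays, again high on mutant replicate 1 and low on mutant replicate 3. The ligand gene Tnfsf10, which encodes TRAIL, read 3.27 to 3.67 on the mutant and 3.32 to 3.74 on the wild type arrays.

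**Figure D2:**
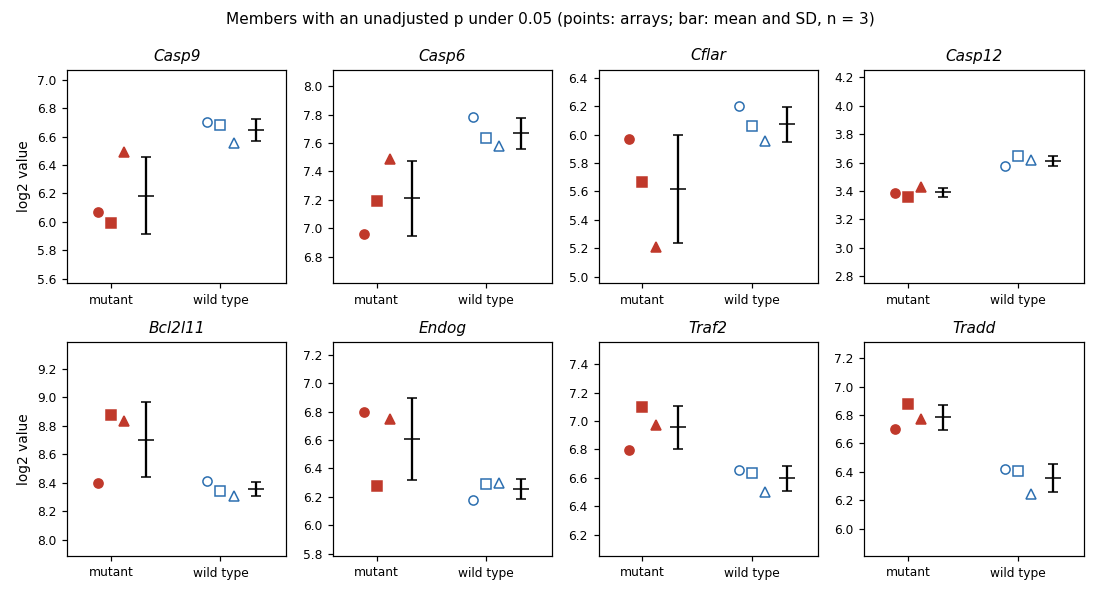
Log2 values of the 8 members with an unadjusted p under 0.05, on 6 arrays, with mutant RPS19 left (filled) and wild type right (open), shape for the replicate number, and a bar for the mean and SD of 3 arrays. Each panel spans 1.5 log2 units. Casp9, Casp6, Casp12, Traf2 and Tradd show no overlap, while Cflar, Bcl2l11 and Endog each have a mutant array within the wild type range.

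Inhibitors of apoptosis bind caspases or mark them for degradation. Birc2, which encodes cIAP1, had 7.32, 8.002 and 7.85 on the mutant arrays, against 7.39, 7.41 and 7.30 on the wild type arrays. As for Bcl2l11, mutant replicates 2 and 3 were high and mutant replicate 1 was not, and the difference was 0.36 ± 0.17 (SE, adjusted p = 0.35, limma). Birc3, which encodes cIAP2 and lies next to Birc2 on chromosome 9, had 7.74, 7.95 and 6.92 on the mutant arrays, against 7.17, 7.18 and 7.07 on the wild type arrays. Here mutant replicates 1 and 2 were high and replicate 3 low, so the neighbours did not share a pattern. Birc6, a very large ubiquitin-conjugating inhibitor, differed by -0.079 ± 0.12.

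Xiap, the direct inhibitor of caspases 3, 7 and 9, was measured by 6 probe sets. The brightest had 7.52, 7.87 and 7.53 on the mutant arrays, against 7.82, 7.80 and 8.03 on the wild type arrays, with a difference of -0.25 ± 0.13 (SE, adjusted p = 0.39, limma). A dim one had 2.74, 2.57 and 2.78 on the mutant arrays, against 3.57, 3.30 and 3.41 on the wild type arrays, and fell by 0.73 ± 0.11 (SE, adjusted p = 0.027 over all probe sets, limma). Of the 6, 3 were lower and 3 higher in the mutant, and 15.1% of all tested probe sets had a lower mean than the called one. Of the antagonists of Xiap released from mitochondria, Htra2 had 8.93, 9.07 and 9.34 on the mutant arrays, against 8.92, 8.83 and 8.76 on the wild type arrays, with a difference of 0.28 ± 0.13 and no overlap. Its other probe set differed by -0.20. Diablo, also called Smac, differed by 0.017 ± 0.11.

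Over probe sets, 2 of 70 were called, both lower in the mutant, beside 2.33% of all 22626 probe sets (0.941% higher and 1.39% lower). These were the Casp9 and Xiap probe sets given above. At an unadjusted p under 0.05 there were 18 of 70, 8 higher and 10 lower, beside 19.1% of all probe sets (8.64% higher and 10.5% lower). The groups did not overlap for 20 of 70, 8 higher and 12 lower, beside 26.1% of all (11.4% higher and 14.7% lower). At an adjusted p under 0.10 the Tradd probe set joined, for 3 of 70, beside 6.13% of all. Allowing the variance prior to follow the level kept 2 of 70, beside 2.57% of all. Of the 18 members with several probe sets, 11 had probe sets of both signs, beside 52.8% of the 4956 genes with several. Leaving out wild type replicate 1, 2 or 3 left 0 of the 70 called, and leaving out mutant replicate 2 left the Casp9 one (adjusted p = 0.039, limma, against 0.078 for Xiap). The shares over all probe sets in these fits are not given here, so these counts are no result about the members. Without a shared variance estimate 0 of 70 were called, beside 81 of all 22626 (limma adjusted p = 0.0981 for Casp9 and 0.0945 for Xiap). Array weights called 11 of 70, beside 11.8% of all.

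**Figure D3:**
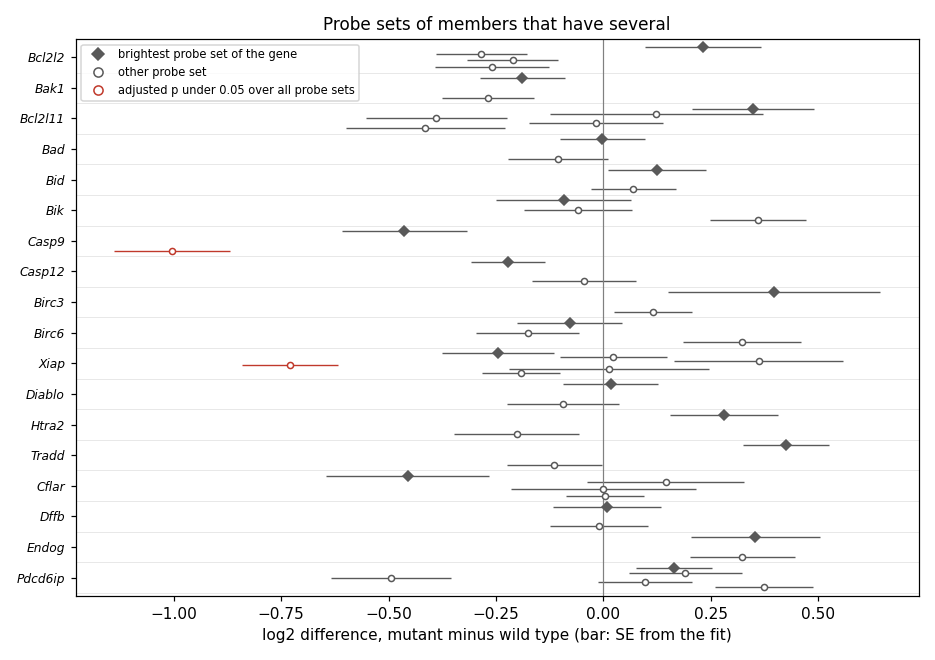
Log2 difference (mutant minus wild type, bar for the SE of the fit) of each probe set of the 18 members that have several, from the brightest at the top of each row to the dimmest. Diamonds are the brightest probe set of a gene, and the red symbols are the called probe sets of Casp9 (-1.004) and Xiap (-0.73).

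None of the genes that act late in cell death was called over all 6 arrays, nor were Pdcd6ip and Pdcd4, which were listed apart from them. Endog, a mitochondrial nuclease, had 6.80, 6.28 and 6.75 on the mutant arrays, against 6.18, 6.29 and 6.30 on the wild type arrays, with mutant replicate 2 among the wild type values. Its difference was 0.35 ± 0.15 (SE, adjusted p = 0.29, limma), and its dimmer probe set differed by 0.32 without overlap. Dffb, the nuclease that cuts DNA between nucleosomes, and Dffa, its inhibitor, differed by 0.0093 ± 0.13 and 0.14 ± 0.14 (SE), and Aifm1, the mitochondrial apoptosis-inducing factor, by 0.021 ± 0.15. Pdcd6ip, which encodes the ESCRT partner Alix, had 7.65, 7.69 and 7.60 on the mutant arrays, against 7.51, 7.41 and 7.52 on the wild type arrays, a difference of 0.16 ± 0.089 without overlap. A dimmer probe set of Pdcd6ip went the other way without overlap, at -0.50 ± 0.14 (SE, adjusted p = 0.117 over all probe sets, limma), and was called lower without mutant replicate 1, at -0.60 (adjusted p = 0.0243). Pdcd4, an inhibitor of translation initiation, had 10.02, 9.35 and 9.30 on the mutant arrays, against 9.78, 9.81 and 9.82 on the wild type arrays, so that mutant replicate 1 stood above and the other mutant arrays below.

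Calls among the members, like those over all genes, changed with the arrays and settings used. Without mutant replicate 1, 6 of 36 members were called by limma, beside 9.54% of all genes (5.84% higher and 3.7% lower). Bcl2l11 rose by 0.50 ± 0.090 (SE, adjusted p = 0.020), Birc2 by 0.56 ± 0.097 (adjusted p = 0.019), Tradd by 0.46 ± 0.10 (adjusted p = 0.034) and Traf2 by 0.44 ± 0.10 (adjusted p = 0.040). Cflar fell by 0.63 ± 0.15 (adjusted p = 0.044) and Pdcd4 by 0.47 ± 0.088 (adjusted p = 0.022). These are values of the brightest probe sets. The dimmer ones, without mutant replicate 1, differed by -0.47 to 0.44 for Bcl2l11, -0.25 to -0.0048 for Cflar and -0.054 for Tradd. Over probe sets 11 of 70 were called without it, 6 higher and 5 lower, beside 11.2% of all (5.98% higher and 5.27% lower), and these included the Casp9 and Xiap probe sets at -0.88 and -0.75. Without mutant replicate 3 the called members were Casp9, at -0.62 (adjusted p = 0.048), and Birc3, at 0.71 (adjusted p = 0.046), beside 1.61% of all genes, and 5 of 70 probe sets passed, beside 3.65% of all. These 5 included the Casp9 one, at -1.05 (limma adjusted p = 0.0248), and the Xiap one, at -0.77 (adjusted p = 0.0304). The brightest probe sets of the X-linked Xiap and Aifm1 then differed by -0.19 and -0.073, and Cflar by -0.25 (adjusted p = 0.321). With each array weighted by its fit, 6 were called, beside 10.4% of all genes: Bcl2l11, Birc2, Tradd and Traf2 rose, and Casp9 and Casp6 fell. Taking the probe set of largest SD for each gene called Casp9 and Xiap, beside 2.88% of all genes.

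**Figure D4:**
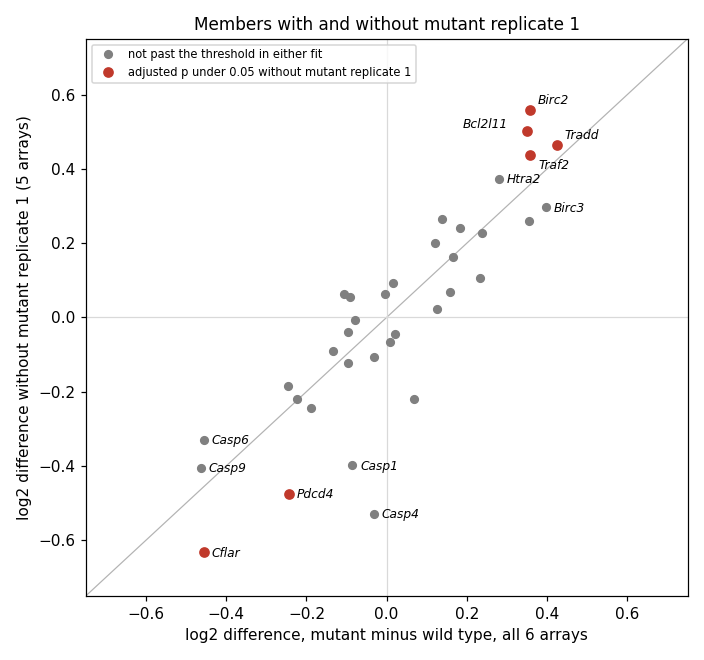
Log2 difference (mutant minus wild type) of each of the 36 members with all 6 arrays on the horizontal axis and with mutant replicate 1 left out on the vertical axis, with the line of equal values. Red points are the 6 members called without mutant replicate 1, and Casp1 and Casp4 lie furthest below the line.

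The 3 mutant arrays differed in their markers of other marrow cells. The mean of 8 neutrophil markers was 11.94, 10.67 and 10.18 on the mutant arrays, against 11.27, 11.27 and 11.14 on the wild type arrays. That of 5 eosinophil, basophil and mast cell markers was 8.18, 6.54 and 5.49 on the mutant arrays, against 6.83, 6.61 and 6.66 on the wild type arrays. All 8 and all 5 were above the wild type range on mutant replicate 1 and below it on mutant replicate 3. Of the members, 5 of 36 had that pattern (Casp1, Casp4, Birc3, Tnfrsf1a and Pdcd4), beside 11.3% of all genes. The 9 erythroid markers averaged 8.92, 9.57 and 9.67 on the mutant arrays, against 9.54, 9.52 and 9.51 on the wild type arrays, so mutant replicate 1 was low. B cell markers (7 of 8 measured) averaged 6.51, 8.40 and 7.26 on the mutant arrays, against 6.59, 6.61 and 6.53 on the wild type arrays. Monocyte and macrophage markers (7 of 8 measured) averaged 6.99, 6.64 and 5.94 on the mutant arrays, against 7.05, 6.98 and 6.92 on the wild type arrays. Megakaryocyte markers (6 of 6) averaged 6.31, 5.84 and 5.80 on the mutant arrays, against 5.45, 5.43 and 5.42 on the wild type arrays, with no overlap. Of these 6, Vwf did not overlap between the groups (1.48 ± 0.19, SE, adjusted p = 0.0358, limma) and the other 5 did. T and NK cell markers (5 of 6 measured) averaged 4.86 to 5.29 on the mutant and 5.15 to 5.27 on the wild type arrays, and endothelial and stromal markers 4.09 to 4.22 on the mutant and 4.22 to 4.28 on the wild type arrays. The part of these cells in the members' values was not tested. In sorted fractions such as these, fewer cells of a type and less RNA per cell cannot be told apart.

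**Figure D5:**
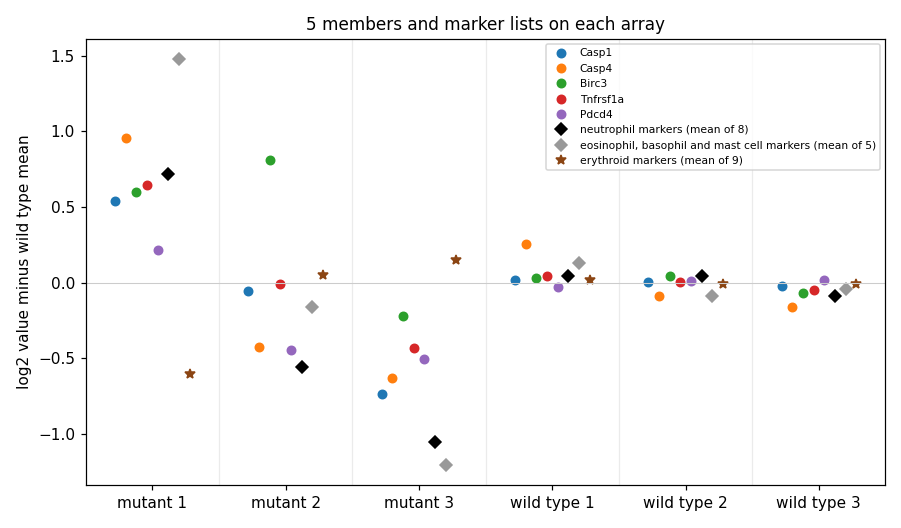
Log2 value minus the wild type mean on each of the 6 arrays for Casp1, Casp4, Birc3, Tnfrsf1a and Pdcd4 (circles) and for the means of 3 marker lists (diamonds and stars). The circles are the members chosen for lying above the wild type range on mutant replicate 1 and below it on mutant replicate 3. Their match with the diamonds, above 0 on mutant replicate 1 and below 0 on mutant replicate 3, therefore follows from that choice. The erythroid star lies below 0 on mutant replicate 1. On mutant replicate 2, which was not used in the choice, Birc3 lies at 0.81. Casp1, Casp4, Tnfrsf1a, Pdcd4 and the diamonds lie below 0 there.

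Other genes of the same pathways were taken from a list of 81, of which 62 were measured. By limma 0 of 62 were called over all genes and 8 had an unadjusted p under 0.05, 7 higher and 1 lower in the mutant, beside 9.11% higher and 8.3% lower over all genes. Bcl2l1, which encodes the erythroid survival factor Bcl-xL, had 7.96, 8.57 and 8.09 on the mutant arrays, against 7.46, 7.47 and 7.35 on the wild type arrays. All mutant arrays were higher and the difference was 0.78 ± 0.16 (SE, adjusted p = 0.088, limma). That was the brightest of 4 probe sets. The others differed by -0.21 to 0.051, and the mean of all 4 by 0.17 (adjusted p = 0.544). Traf6, a ubiquitin ligase of interleukin-1 and Toll-like receptor signalling, differed by 0.37 ± 0.088, Pdcd2 by 0.32 ± 0.10, Cradd, an adaptor for caspase-2, by 0.28 ± 0.092 and Dap3, a mitochondrial ribosomal protein, by 0.30 ± 0.11 (SE), each without overlap. Dapk3, a death-associated protein kinase, differed by -0.46 ± 0.12. On the mean of all their probe sets Traf6 differed by 0.15 (limma adjusted p = 0.403) and Dapk3 by -0.24 (adjusted p = 0.271). Without mutant replicate 1, 6 of 62 were called, beside 9.54% of all genes: Bcl2l1, Traf5 and Dapk2 rose, and Mcl1, Pmaip1 and Dapk3 fell. Of these 6, chosen after their values were seen apart from Bcl2l1 and Dapk3, Pmaip1, the BH3-only protein Noxa, had 6.26, 3.78 and 3.35 on the mutant arrays, against 5.13, 5.11 and 5.19 on the wild type arrays, and so split the mutant arrays as Casp1 did.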

How the data were processed

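One Affymetrix array was run for each of 6 samples. The authors deposited log2 values; the submitters' processing notes list GCOS, Affymetrix Expression Console and RMA, a method that corrects background, quantile normalises and summarises probes. No version, genome build or grouping of arrays for normalisation is stated in the labels. Of 22690 probe sets, 64 controls were left out of the tests. The platform annotation gave 1 symbol for 20380 probe sets, several for 691 and none for 1555. The probe set brightest over 6 arrays stood for each of 12393 genes. Two-sided limma tests (version 3.58.1, R 4.3.3; lmFit, eBayes, no covariates) set mutant against wild type over all genes and over all 22626 probe sets, with Benjamini-Hochberg adjustment and a threshold of 0.05. Members and lists were chosen with earlier results of these data known. All members were to be named, and of the other listed genes those called and the 6 with the lowest p. The fits were tested on simulated data with 200 changed features. At a log2 change of 0.5, 0% were recovered in the gene fit and in the probe set fit. At a change of 1, 78% of genes and 70% of probe sets were recovered, with 10 and 5 false calls. At a change of 2 these were 94% and 92%, with 11 and 10 false calls. Controls and marker means were compared by exact permutation tests (scipy 1.17.1). Alternatives covered the variance prior, array weights, normalisation, dim probe sets, the choice of probe set, the threshold, the replicate block and leaving out each array. With 3 arrays a group, their number limits precision.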

Additional observations from a re-analysis of the deposited data

How the results depend on the processing

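The count of called members was 0 in all settings but 4. It was out of 36 members, or 31 and 19 with the filters for dim probe sets. Few or no genes were called at all in some of these settings, 0 of 12393 without a shared variance estimate and 7 with the replicate block. The filter at a mean over 5 called 99 of 7266 genes, and that over 7 called 160 of 4414. The count was 6 with array weights, beside 10.4% of all genes. With the probe set of largest SD per gene it was 2 (Casp9 and Xiap, beside 2.88% of all genes). Leaving out single arrays gave 0 to 6. Of the 70 member probe sets, 11 were called with array weights, beside 11.8% of all. Without a shared variance estimate 0 of 70 were called, beside 81 of all 22626 probe sets, and with the replicate block 0, beside 112. With probe sets averaging over 5 only, 0 of 46 were called, beside 631 of 12324. With those averaging over 7 only, 0 of 21 were called, beside 508 of 6890. Both filters left out the called Casp9 and Xiap probe sets. Leaving out single arrays gave 0 to 11. Of the 62 other cell death genes 5 were called with array weights (beside 10.4% of all genes), 1 at an adjusted p under 0.10 (beside 3.09%), and 0 to 6 without single arrays (the 6 without mutant replicate 1, beside 9.54%). Whether the replicate numbers pair the samples cannot be settled from 3 arrays a group. Deviations of same-numbered mutant and wild type arrays from their group means correlated at 0.061, 0.022 and 0.082. Those of the other pairs correlated at -0.10 to 0.036. With the replicate block the called probe sets had adjusted p = 0.0572 (Casp9) and 0.0649 (Xiap, both limma), and the block changed no other call of a member. The members' median difference ran from -0.0155 to 0.0996 over all settings. The cause of these changes was not tested. Signs turned for several differences, none of them called with all arrays. With array weights these were Bad (0.021), Bik (0.10), Bmf (0.046), Birc6 (0.036), Tnfrsf1a (-0.032), Dffb (-0.089) and Aifm1 (-0.10). When quantile normalisation was repeated without controls they were Diablo (-0.0051), Tnfsf10 (0.025) and Dffb (-0.040). On the mean of all probe sets they were Bcl2l2 (-0.13), Bcl2l11 (-0.070, against 0.35), Bik (0.069), Birc6 (0.023), Diablo (-0.039) and Dffb (-0.0002). With the probe set of largest SD they were Bcl2l2 (-0.26), Bik (0.36), Birc6 (0.32), Diablo (-0.094) and Pdcd6ip (-0.50, against 0.16). Leaving out single arrays gave ranges of -0.050 to 0.064 for Bad, -0.25 to 0.056 for Bik, -0.21 to 0.062 for Bmf, -0.22 to 0.32 for Tnfrsf1a, -0.065 to 0.13 for Dffb, -0.073 to 0.18 for Aifm1, -0.53 to 0.27 for Casp4, -0.035 to 0.093 for Diablo, -0.15 to 0.093 for Tnfsf10, -0.40 to 0.24 for Casp1 and -0.14 to 0.015 for Birc6. No detection calls were used, so whether dim probe sets such as those of Casp12, Bmf and Tnfsf10 read above background was not tested.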
